A study of Rattus norvegicus with 13 samples.

Results

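The 10 genes described here carry the cyclic nucleotide signal of smooth muscle: the soluble guanylyl cyclase subunit genes Gucy1a2, Gucy1a3 and Gucy1b3, the kinase gene Prkg1, the phosphodiesterase genes Pde3a, Pde4d and Pde5a, and the adenylyl cyclase genes Adcy5, Adcy6 and Adcy8. They were chosen by name, with earlier results of these data known, out of 21397 genes named in the deposited peak lists. The lists gave them 46 H3K4me2 peaks for control, 35 for Myocd-LSD1 and 41 for Myocd-LSD1NF cells, and 23 FLAG peaks. A further 9 sites at these genes stood in the authors' deposited comparison of Myocd-LSD1 with Myocd-LSD1NF, which lists 5183 sites.

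The profiles came from CUT&Tag, in which an antibody directs a transposase to cut and tag nearby DNA, in rat aortic smooth muscle cell lines grown in serum-containing medium. H3K4me2, the dimethyl mark on lysine 4 of histone H3, was mapped in wild-type control cells, in Myocd-LSD1 cells and in Myocd-LSD1NF cells, with 3 samples each. FLAG was mapped only in a line labelled FLAG-tagged Myocd-LSD1, with 4 samples, so the FLAG signal of cells without the fusion is not known. Myocd is the gene of myocardin, a coactivator of serum response factor, and LSD1 is a demethylase that removes the mark; the labels do not say what NF stands for, how the constructs were delivered, or whether a line is a single clone. Each group has a single peak list, so differences between lists have no replicate error, and the part of sequencing depth, which is unknown, was not tested. In the replicated comparison the authors' deposited table gives a mean per line and no value per sample, and only sites that passed an FDR of 0.05 are in it. Nothing in the labels says whether the samples of a line were separate cultures, so its p-values may measure technical spread. All 7 smooth muscle marker genes had an H3K4me2 peak within 3 kb of a transcription start site for control and Myocd-LSD1NF cells, and 6 of 7 for Myocd-LSD1 cells, where Myh11 had none. Of 4 endothelial markers 1 (Kdr) had such a peak in control cells and 0 in the other lines, and of 3 fibroblast markers Pdgfra had one in every line. Of 4 leukocyte markers Adgre1 was listed with no such peak. The other 3 leukocyte markers (Ptprc, Cd68 and Lyz2) and the other 2 fibroblast markers (Dcn and Lum) were found in no list, by symbol or by RefSeq transcript, so whether their promoters lack the mark or the lists lack the genes cannot be told apart.

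Nitric oxide relaxes vascular smooth muscle by binding soluble guanylyl cyclase, a heterodimer of an alpha and a beta subunit that makes cyclic GMP, which in turn activates the protein kinase encoded by Prkg1. Cyclic AMP is made by adenylyl cyclases downstream of receptors coupled to stimulatory G proteins, and it also relaxes the cells. Phosphodiesterases break both messengers down.

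At their start sites the guanylyl cyclase genes Gucy1b3 and Gucy1a2 differed in opposite directions between the fusion lines. The beta subunit gene Gucy1b3 carried less H3K4me2 with Myocd-LSD1 than with Myocd-LSD1NF, and the alpha subunit gene Gucy1a2 carried more. In the authors' deposited table the Gucy1b3 site (chromosome 2, 181025083 to 181026221, rn6) has a mean concentration of 4.11 for Myocd-LSD1 against 7.32 for Myocd-LSD1NF. Concentrations are log2 values of reads, and how they were normalized is not stated. The Gucy1b3 site was thus lower by a log2 difference of -3.20 in the authors' deposited table (FDR 1.17e-19). The Gucy1a2 site (chromosome 8, 407663 to 408647) stood at 5.93 and 2.62 in the authors' deposited table, higher by 3.31 on the log2 scale (FDR 0.00379). Both sites lie across the start site. By FDR the Gucy1b3 site was in place 46 and the Gucy1a2 site in place 2728 of the authors' deposited table. Gucy1a3, which encodes another alpha subunit and whose start lies 76572 bp from the Gucy1b3 site, is not listed there.

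The peak lists add the control cells. Control cells had a Gucy1b3 peak over the start site with a fold enrichment of 15.3, at the 97.9 percentile of its list by q-value. The Gucy1b3 peak of Myocd-LSD1NF cells reached 13.6, at the 93.5 percentile of its list, and that of Myocd-LSD1 cells 9.08, at the 47.2 percentile. All folds, scores and q-values of peaks are the authors' values and describe a peak within its own list. At Gucy1a2 the peak over the start site had a fold enrichment of 6.72 in control (36.7 percentile of its list) and 12.6 in Myocd-LSD1 cells (77.3 percentile), and Myocd-LSD1NF cells had no peak within 3 kb of the start. Gucy1a3 had its only peak in control cells, 297 bp inside the gene (chromosome 2, 181102137 to 181102496), with a fold enrichment of 5.45 at the 22.3 percentile. Neither fusion line had a peak within 3 kb of the Gucy1a3 start, and the replicated table does not cover control cells, so this absence has no replicate check. No FLAG peak was given to Gucy1a3 or Gucy1b3.

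**Figure D1:**
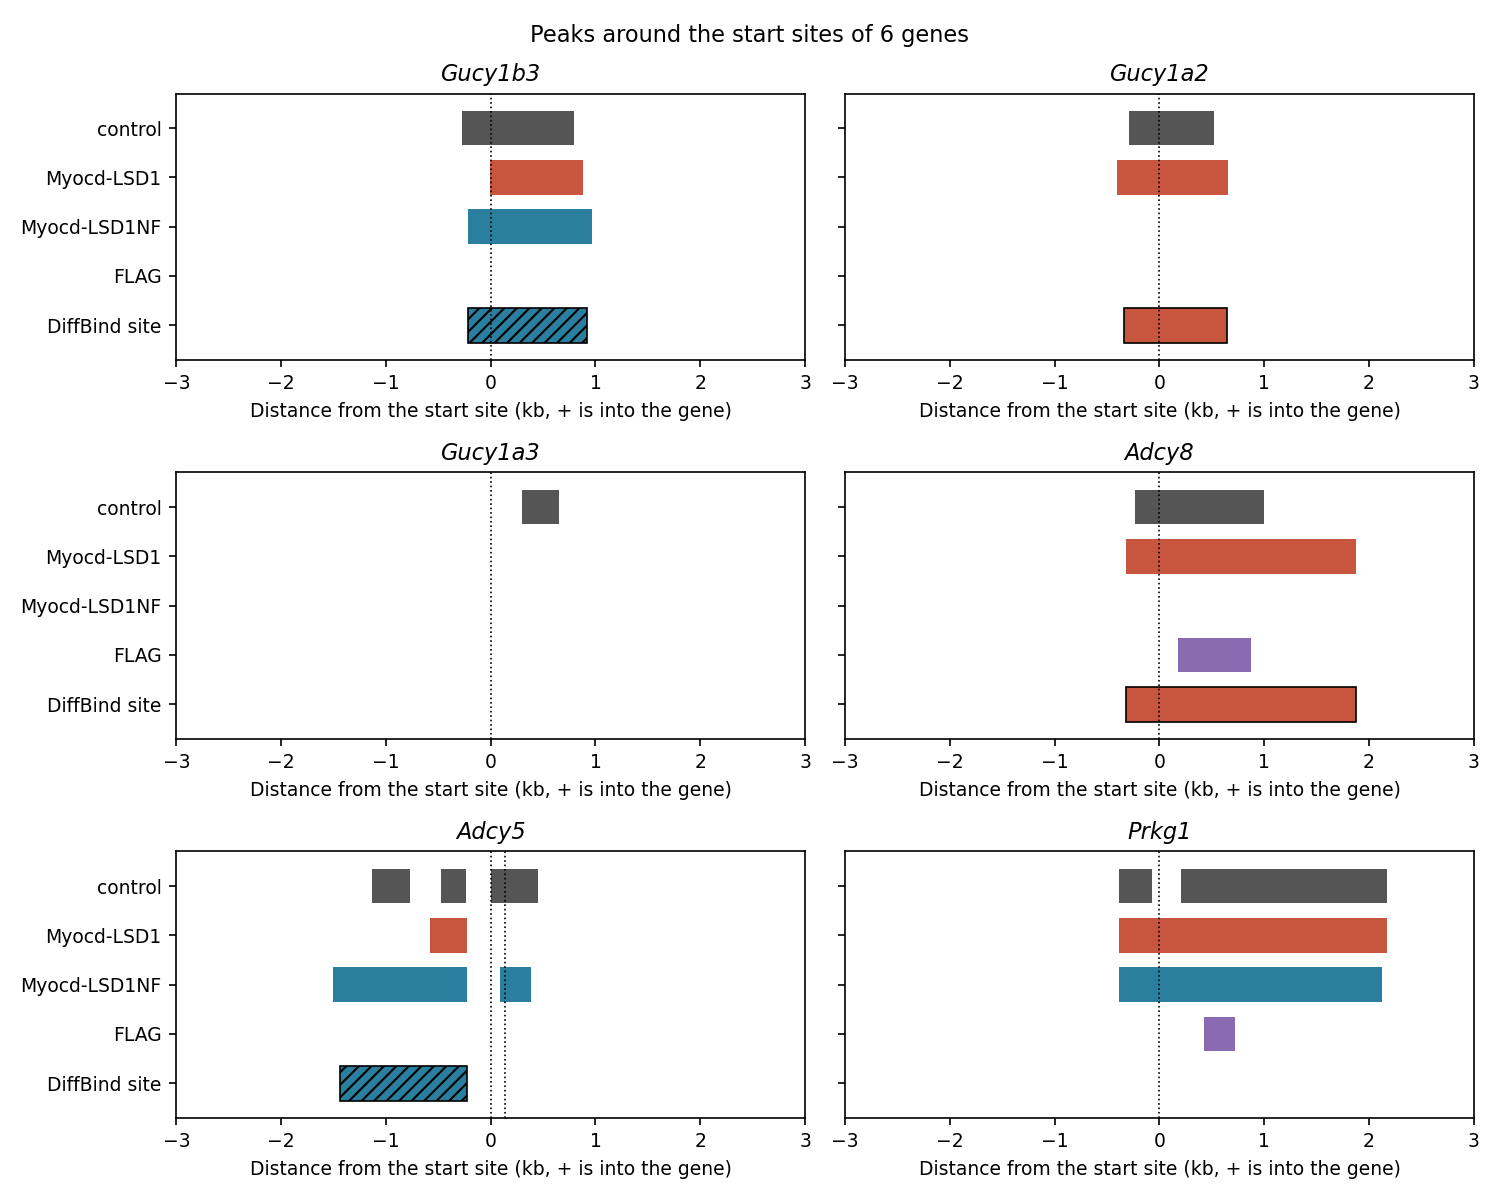
Peaks within 3 kb of the start sites of 6 genes, by distance from the start site in kb (dotted lines are start sites; the axis runs in the direction of transcription). Each row is a peak list, and the lowest row holds sites of the authors' deposited table, red where higher and hatched blue where lower in Myocd-LSD1; Myocd-LSD1NF has no peak at Gucy1a2, Gucy1a3 and Adcy8.

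RefSeq promoter windows of the guanylyl cyclase genes are shown because the Gucy1b3 and Gucy1a2 start sites went in different directions. Gucy1a3, which has no listed site and so no direction, is shown beside them. The window of Adcy5 is shown because its site begins just upstream of the start. Each window runs from 250 bases before to 50 after a RefSeq start in the assembly GRCr8 (Gucy1b3 and Gucy1a3 are named Gucy1b1 and Gucy1a1 there), a later build than the rn6 of the peaks, so the windows are not placed on the peaks. Capitals mark, on either strand, the box letters CCAAT, the TATA box letters TATAAA, the Sp1 GC box letters GGGCGG, the letters TGACG of a cyclic AMP response element and the CArG box bound by serum response factor, where found. The windows are chr2:169696938-169697237 (minus strand) for Gucy1b3, chr8:8784962-8785261 (plus strand) for Gucy1a2, chr2:169779574-169779873 (minus strand) for Gucy1a3 and chr11:79123294-79123593 (minus strand) for Adcy5.
Gucy1b3: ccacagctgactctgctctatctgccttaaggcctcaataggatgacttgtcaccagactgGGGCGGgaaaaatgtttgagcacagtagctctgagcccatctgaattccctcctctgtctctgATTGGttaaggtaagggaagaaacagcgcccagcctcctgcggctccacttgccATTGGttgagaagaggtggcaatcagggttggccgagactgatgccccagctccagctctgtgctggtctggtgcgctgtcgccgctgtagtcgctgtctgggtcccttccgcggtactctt
Gucy1a2: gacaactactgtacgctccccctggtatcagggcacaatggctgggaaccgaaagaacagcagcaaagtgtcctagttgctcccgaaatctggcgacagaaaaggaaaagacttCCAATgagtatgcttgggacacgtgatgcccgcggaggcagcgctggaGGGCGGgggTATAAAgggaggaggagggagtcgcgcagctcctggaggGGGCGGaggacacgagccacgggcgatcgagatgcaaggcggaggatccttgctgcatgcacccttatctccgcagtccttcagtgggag
Gucy1a3: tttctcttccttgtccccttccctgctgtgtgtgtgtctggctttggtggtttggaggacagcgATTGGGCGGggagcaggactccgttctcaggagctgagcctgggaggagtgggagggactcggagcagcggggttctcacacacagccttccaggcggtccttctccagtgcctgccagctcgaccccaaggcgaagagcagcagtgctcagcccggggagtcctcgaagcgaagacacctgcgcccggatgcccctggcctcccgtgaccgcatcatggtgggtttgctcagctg
Adcy5: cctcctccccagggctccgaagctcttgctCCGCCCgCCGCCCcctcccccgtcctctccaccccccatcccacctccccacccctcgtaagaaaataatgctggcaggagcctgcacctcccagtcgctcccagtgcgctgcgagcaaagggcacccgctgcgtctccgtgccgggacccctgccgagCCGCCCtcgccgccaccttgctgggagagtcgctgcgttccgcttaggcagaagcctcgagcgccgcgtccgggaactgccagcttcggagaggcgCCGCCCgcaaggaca

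The Gucy1b3 window held CCAAT 2 times, beginning 126 and 72 bases before the start, and 1 GC box. Gucy1a2 had a TATA box 79 bases before the start, beside 1 CCAAT box and 2 GC boxes. In the Gucy1a3 window a CCAAT box, 186 bases before the start, overlaps a GC box. Adcy5 had 4 GC boxes and a GC content of 70.7%, against 56.3% for Gucy1b3, 59.3% for Gucy1a2, 63.7% for Gucy1a3 and a median of 51.7% over all 33469 RefSeq windows. Of all windows 37.5% held a CCAAT box, 14.2% a TATA box, 33.1% a GC box, 21.2% the response element letters and 1.64% a CArG box. No CArG box was found in any of the 12 windows that 8 of the 10 genes have; Adcy6 and Adcy8 have none in the table. These are letter matches, not measured binding.

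The adenylyl cyclase genes of the set were also split. Adcy8 had a higher site in Myocd-LSD1, on its start, whereas Adcy5 and Adcy6 had lower sites, that of Adcy6 away from its start. The Adcy8 site (chromosome 7, 105590929 to 105593124) covers the start site, and in the authors' deposited table it stands at 8.64 for Myocd-LSD1 against 0.89 for Myocd-LSD1NF, higher by 7.75 on the log2 scale (FDR 1.16e-31). Among the 3009 higher sites of the authors' deposited table this difference was in place 3 by size, and the lowest value of its Myocd-LSD1NF column is -0.11. The Adcy8 peak over the start was 1232 bp wide in control (fold enrichment 10.2) and 2195 bp wide in Myocd-LSD1 cells (9.32), and Myocd-LSD1NF cells had no Adcy8 peak at all. Myocd-LSD1 cells had 3 more peaks, beyond the end of the gene at 251967, 252596 and 307311 bp from the start, which neither other line had. These had folds of 4.70 to 6.97, and that at 252596 bp overlapped a FLAG peak (fold 3.88).

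The Adcy5 site (chromosome 11, 68842678 to 68843889), which begins 226 bp upstream of the start, differed by -2.56 on the log2 scale in the authors' deposited table (2.97 for Myocd-LSD1, 5.53 for Myocd-LSD1NF, FDR 1.02e-05). The Myocd-LSD1NF peak there was 1278 bp wide and the Myocd-LSD1 peak 352 bp, while control cells had separate peaks of 235 and 363 bp. Over an annotated start control and Myocd-LSD1NF cells had a further peak (450 and 301 bp wide), which Myocd-LSD1 cells lacked. A peak in intron 1 of Adcy5, 22533 bp downstream of a start in control cells, was present in every line and in the FLAG list, with folds of 10.3 (control), 10.6 (Myocd-LSD1), 10.7 (Myocd-LSD1NF) and 9.07 (FLAG). The Adcy6 peak on the start site stood at the 95.5 percentile by q-value for control, 85.4 for Myocd-LSD1 and 95.1 for Myocd-LSD1NF. The Adcy6 site in the authors' deposited table lay elsewhere, 6529 bp upstream (chromosome 7, 140298251 to 140299487), at 5.31 for Myocd-LSD1 against 6.47 for Myocd-LSD1NF, or -1.17 on the log2 scale (FDR 0.00115). The start of Cacnb3, a calcium channel subunit gene, lies 11633 bp from that site.

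Of the phosphodiesterase genes, Pde3a had a lower site inside the gene, Pde4d had sites in both directions and Pde5a had none. The Pde3a enzyme, which breaks down cyclic AMP and is inhibited by cyclic GMP, has a start-site peak at the 94.3, 98.5 and 98.9 percentiles of the control, Myocd-LSD1 and Myocd-LSD1NF lists, and no site of the authors' deposited table lies on it. A Pde3a site in intron 1 (chromosome 4, 175568420 to 175569143), 9729 bp upstream of an internal start, differed by -1.63 on the log2 scale in the authors' deposited table (4.28 for Myocd-LSD1, 5.91 for Myocd-LSD1NF, FDR 0.00134). Pde5a, the gene of the cyclic GMP phosphodiesterase targeted by sildenafil, had a wide peak on its start in control (2225 bp), Myocd-LSD1 (2126 bp) and Myocd-LSD1NF cells (2305 bp), and is not listed in the authors' deposited table. The remaining H3K4me2 peaks of Pde5a had folds of 2.47 to 3.89.

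Pde4d, whose enzyme breaks down cyclic AMP, spans 1248.6 kb with 7 start sites in the lists, from which isoforms with different first exons arise. It held 15 control, 13 Myocd-LSD1 and 16 Myocd-LSD1NF peaks, which merge with the FLAG peaks into 21 regions, of which 9 were marked in all 3 lines. Pde4d was the only one of the 10 genes with sites in both directions. Close to an internal start (473 bp downstream) the site at chromosome 2, 41210381 to 41211390 was higher with Myocd-LSD1 by 0.88 on the log2 scale in the authors' deposited table (7.01 against 6.12, FDR 0.0111). Another, 4101 bp downstream of a different start (41422452 to 41422765), was higher by 0.80 in the authors' deposited table (6.70 against 5.89, FDR 0.0161). A lower site in intron 2 (41066846 to 41067254) was at the lowest value of the Myocd-LSD1 column (-0.08) against 3.26 for Myocd-LSD1NF (FDR 0.0347), per the authors' deposited table, so that its size depends on that floor. At the start of the transcript NM_001113332.1, control and Myocd-LSD1 cells had peaks (folds 7.24 and 4.70) and Myocd-LSD1NF cells had none, and no site of the authors' deposited table lies there.

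Prkg1, the gene of the cyclic GMP-dependent kinase, spans 1318.9 kb and is not listed in the authors' deposited table. Its start lay under peaks of 2556 bp (Myocd-LSD1) and 2509 bp (Myocd-LSD1NF), and control cells had peaks of 1963 and 317 bp on either side. Of its 12 regions, 3 were marked in all 3 lines, namely that at the start and those 100426 and 246900 bp into the gene. Another 3 regions were marked in control and Myocd-LSD1NF cells and had no Myocd-LSD1 peak, at 10689, 164783 and 190916 bp. Over the 10 genes 6 of 60 H3K4me2 regions (10.0%) had that pattern, against 6.40% of all regions. In the order given, the peaks of the 3 Prkg1 regions stood at the 33.7, 0.997 and 22.3 percentiles by q-value in control. They stood at the 1.59, 49 and 26.8 percentiles in the Myocd-LSD1NF list, so some were among the weakest of their list. All Prkg1 peaks, FLAG included, lay within 336316 bp of its start, in introns 1 and 2 or at the promoter.

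**Figure D2:**
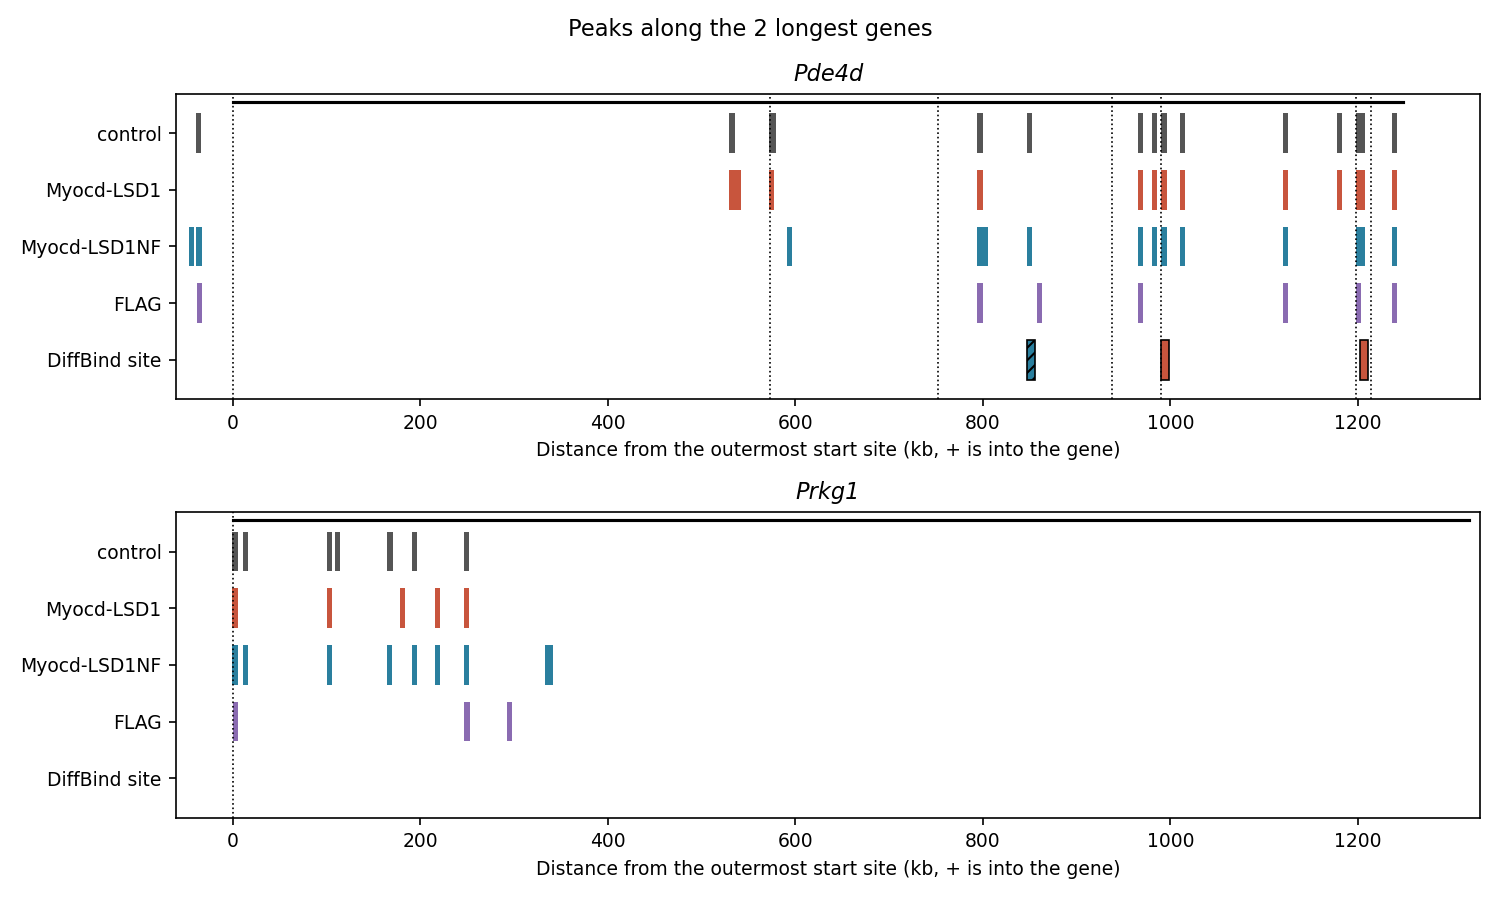
Peaks along Pde4d and Prkg1 by distance from the outermost start site in kb, drawn in the direction of transcription (black line, gene; dotted lines, start sites; red and hatched blue boxes, sites higher and lower in Myocd-LSD1). Narrow peaks are drawn at a minimum width so that they can be seen; Pde4d peaks gather in the downstream part of the gene and Prkg1 peaks near its start.

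Counted over the set, 5 of 10 genes had a lower site (Adcy5, Adcy6, Gucy1b3, Pde3a and Pde4d), where 8.40% of all 21397 genes had one, and 3 of 10 had a higher site (Adcy8, Gucy1a2 and Pde4d), where 11.7% had one. Gucy1a3, Pde5a and Prkg1 had none, like 81.0% of all genes. The genes of the set hold more peaks than most, with a median of 3.5 control peaks each against 1 over all genes, and the part of this in the counts was not tested beyond the next comparison. Among genes with at least 3 control peaks, a background chosen after seeing the data, 20.8% had a lower and 20.5% a higher site; 6 genes of the set are among them, 4 with a lower and 1 with a higher site. The median log2 difference of the 5 lower sites was -2.56, against -2.09 for all 2174 lower sites of the authors' deposited table, and that of the 4 higher sites was 2.10, against 2.36 for all higher sites. The 5 lower sites include the Pde4d site of -3.34, which rests on the lowest Myocd-LSD1 value. With so few sites the median depends on it. Within 3 kb of a start lay 2 of the 5 lower and 3 of the 4 higher sites. The same share over all sites was not computed, so whether this differs from them was not tested. All 9 sites overlapped a control peak, as did 83.8% of all lower and 69.2% of all higher sites.

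**Figure D3:**
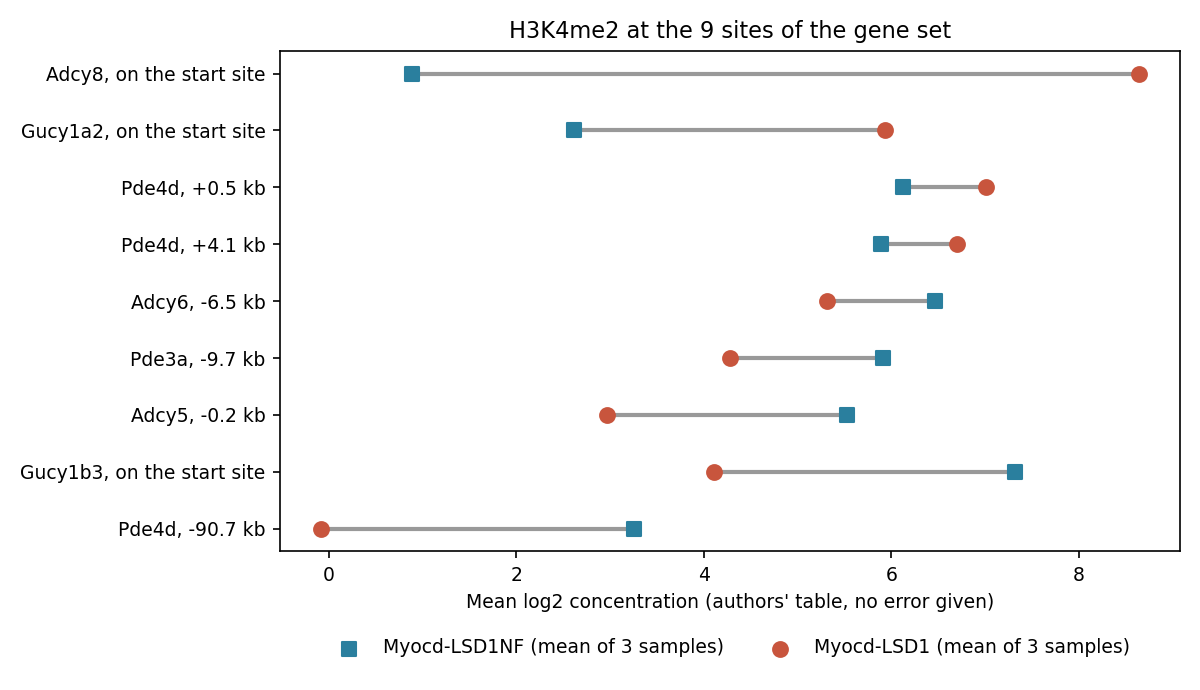
Mean log2 concentration of H3K4me2 at the 9 sites of the authors' deposited table, in Myocd-LSD1 (red circles) and Myocd-LSD1NF cells (blue squares), with no error since the table gives none. Lower sites run from -3.34 to -1.17 and higher sites from 0.80 to 7.75, with Adcy8 the highest; the -3.34, at Pde4d, rests on the lowest Myocd-LSD1 value.

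All 10 genes had a promoter peak, meaning within 3 kb of a start site, in control cells, against 9 with Myocd-LSD1 and 7 with Myocd-LSD1NF; over all genes the shares were 65.8%, 64.0% and 61.7%. Adcy8 and Gucy1a2 had one in control and Myocd-LSD1 and none in Myocd-LSD1NF cells, a pattern found at 3.20% of all genes. The reverse, a promoter peak in control and Myocd-LSD1NF cells alone, was found at 0 of the 10 and at 1.60% of all genes. Gucy1a3 had its promoter peak in control cells alone, as did 3.37% of all genes. A Myocd-LSD1 peak overlapped 65.2% of the control peaks of the set (exact 95% binomial interval 49.8 to 78.6, counting error only), and a Myocd-LSD1NF peak overlapped 69.6% (54.2 to 82.3). Over all control peaks these shares were 78.9% and 80.8%. Of the 41 Myocd-LSD1NF peaks of the set, 58.5% (42.1 to 73.7) overlapped a Myocd-LSD1 peak, against 77.8% over that whole list, and 70.7% (54.5 to 83.9) a control peak, against 78.1%. Pde4d holds 16 of these 41 peaks and Prkg1 holds 9, so the shares weigh mostly these long genes. The intervals treat peaks of the same gene as independent. Of the 35 Myocd-LSD1 peaks of the set, 68.6% (50.7 to 83.1) overlapped a Myocd-LSD1NF peak, against 78.2%, and 80.0% (63.1 to 91.6) a control peak, against 76.8%. Promoter peaks made up 37.0% of the control peaks of the set against 45.8% of the whole control list, 31.4% against 44.6% for Myocd-LSD1 and 22.0% against 42.5% for Myocd-LSD1NF. Merged over the lines, 23 of 60 H3K4me2 regions (38.3%) were marked in all 3, against 51.9% of all regions.

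**Figure D4:**
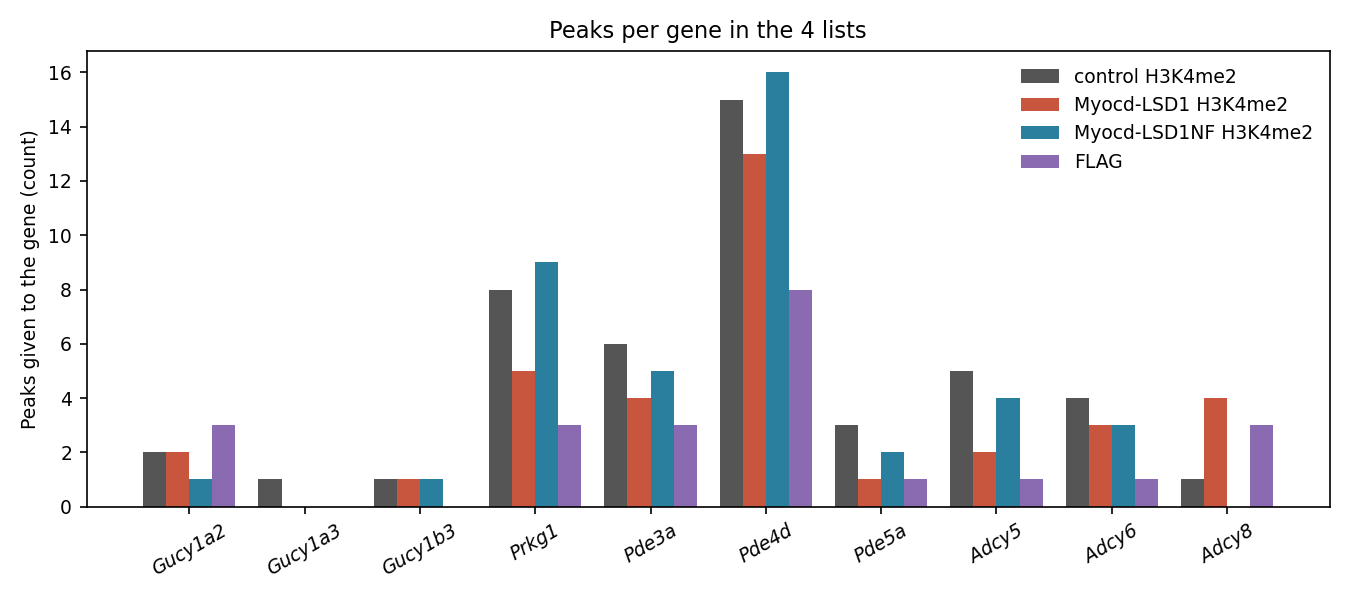
Number of peaks given to each of the 10 genes in the 4 lists (bars; 1 list per group, so no error). Pde4d has the most in each list, Gucy1a3 has 1 peak, in control, and Adcy8 has none in Myocd-LSD1NF.

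FLAG peaks were given to 8 of the 10 genes (70.7% of all genes had one) and lay within 3 kb of a start at 5, namely Adcy8, Pde3a, Pde4d, Pde5a and Prkg1 (44.2% of all genes). The strongest of the promoter peaks by q-value was at Pde4d (fold enrichment 7.90), followed by Pde3a (7.49), Adcy8 (5.45), Prkg1 (4.30) and Pde5a (4.25). The Adcy8 FLAG peak, 176 bp inside the gene, lies within the site that was higher in Myocd-LSD1, and a weak Adcy6 FLAG peak (3.64) lies within the upstream site that was lower. A FLAG peak thus overlapped 1 of 4 higher and 1 of 5 lower sites of the set, where 32.5% of all higher and 22.7% of all lower sites had one. All 3 FLAG peaks given to Gucy1a2 lie at least 225712 bp upstream of its start. Of the 23 FLAG peaks of the set, 15 (65.2%; 42.7 to 83.6) overlapped an H3K4me2 peak of Myocd-LSD1 cells, against 69.0% of all FLAG peaks.

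Other genes of the pathway, from receptors to kinase subunits, were counted for comparison. Of 70 genes, 68 were named in the lists, with a median of 3 control peaks. A lower site was found at 13 (19.1%), a higher site at 21 (30.9%), both at 2 and neither at 36. Over all genes 8.40% had a lower site, 11.7% a higher site, 1.07% both and 81.0% neither. Among the 35 of them with at least 3 control peaks, 34.3% had a lower and 34.3% a higher site, against 20.8% and 20.5% of all such genes. By the authors' deposited table the largest lower log2 differences were at Pde4a, a further cyclic AMP phosphodiesterase gene (-3.72, FDR 3.74e-09), Akap12, an anchoring protein gene for protein kinase A (-3.35, FDR 0.00578), and Mrvi1, whose product is a target of the Prkg1 kinase (-3.25, FDR 0.0398). The authors' deposited table next has Prkar2a, a regulatory subunit gene of protein kinase A (-3.16, FDR 0.00966, 8892 bp from a start), and Pkia, which encodes an inhibitor of that kinase (-3.07, FDR 0.0169, 231936 bp from the start). Akap12 is also listed with a site higher by 3.36 (FDR 0.0025) in the authors' deposited table, 145 bp from a start. Leaving aside sites at the lowest value of a column, whose differences rest on that floor, the authors' deposited table has the largest higher log2 differences among the 5 genes named at Vipr1, a receptor gene for vasoactive intestinal peptide (5.16, FDR 5.81e-10), Ptger2, a prostaglandin E receptor gene (4.28, FDR 2.94e-07), and Gnas, the gene of the stimulatory G protein (4.10, FDR 0.000123). The sites set aside were those of Pde9a and Pde10a. The authors' deposited table has them at its lowest Myocd-LSD1NF value, against 4.39 and 4.17 for Myocd-LSD1. By the differences as listed they are among the 5 largest. Some sites named above also lie close to a floor (-0.08 for Myocd-LSD1, -0.11 for Myocd-LSD1NF), so their differences depend on it too. Among them in the authors' deposited table are Vipr1 (0.63 for Myocd-LSD1NF) and Prkar2a (0.64 for Myocd-LSD1). Akap12 has 0.64 for Myocd-LSD1 at its lower site and 0.67 for Myocd-LSD1NF at its higher site in the authors' deposited table.

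A promoter peak was present at 56 of these 68 genes for control, 55 for Myocd-LSD1 and 45 for Myocd-LSD1NF. Over all genes 65.8%, 64.0% and 61.7% had one in these lists. A promoter peak in control and Myocd-LSD1 but not in Myocd-LSD1NF cells was found at 9 of the 68 (13.2%), against 3.20% of all genes. The 9 were Adcy4, Adrb1, Pde1b, Pde8b, Pde9a, Pkib, Ptger2, Rapgef4 and Vipr1. Of these 9, Pde9a, Pkib, Ptger2 and Vipr1 are listed as higher in the authors' deposited table. The reverse pattern was found at 0 of the 68 and at 1.60% of all genes. FLAG peaks were given to 51 of the 68 (75.0%), against 70.7% of all genes. The highest scores were at Crem (2389, 118675 bp from the start), a cyclic AMP response modulator gene, Gnai2 (200), an inhibitory G protein gene, and Creb1 (139), the gene of the cyclic AMP response element binding protein. The Crem peak (fold enrichment 35.4) stood far above the next, and whether it depends on the fusion was not tested.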

How the data were processed

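H3K4me2 and FLAG CUT&Tag of rat aortic smooth muscle cell lines was analysed from the authors' processed files. Bowtie2, deepTools, MACS2, ChIPseeker, DiffBind and the build rn6 are named, without settings, per the submitters' processing notes; how read ends were shifted, duplicates treated or libraries scaled was not found in those notes. Per the file headers, each deposited peak list gives a score, a fold change and a -log10 q-value for each peak. The fold change is called fold enrichment here, and its header does not name what it is relative to. The names of its peaks refer to 1 alignment, so pooling of replicates cannot be read from it. The DiffBind output, the authors' deposited table, holds mean log2 concentrations with their difference (Myocd-LSD1 less Myocd-LSD1NF, checked within 0.01), and an FDR beside each p-value; its test and normalization are not stated. No file gives the depth of a sample.

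Starts were turned to 1-based counting. Peaks belong to the gene the authors named. A site belongs to a gene when it overlaps a peak of that gene, in any list, by at least 1 bp. No test was added to the authors' FDR; shares of peaks that overlap another list carry exact (Clopper-Pearson) 95% binomial intervals, and other shares carry none. The overlap code was tested on simulated intervals. All 10 members are described. Of the other pathway genes, the text names the 5 largest lower and higher differences and the 3 highest FLAG scores; the 9 genes named for their promoter pattern were chosen after their values were seen. Members and lists were chosen with earlier results of these data known. The alternatives changed promoter distance, overlap, the part of each list used, the FDR, the size of the difference and the assignment of sites. RefSeq windows and names come from GRCr8. Tables were made with pandas 2.3.3 and numpy 2.4.6 under Python 3.11.15, intervals with scipy 1.17.1 and figures with matplotlib 3.10.9.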

Additional observations from a re-analysis of the deposited data

How the results depend on the processing

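With the 50% of each list that had the strongest q-values, the set held 24 control, 20 Myocd-LSD1, 20 Myocd-LSD1NF and 10 FLAG peaks. Of these, 85.0% of the Myocd-LSD1 peaks and 85.0% of the Myocd-LSD1NF peaks overlapped the other line. No share over all peaks was taken at this cut, so whether the set still differs from the whole lists there was not tested. At an FDR of at most 0.01 the higher sites of the set came to 2 and the other pathway genes with a lower site to 7; with a log2 difference of at least 1 the higher sites of the set also came to 2. Both reductions of higher sites took the Pde4d sites, so that the members with a higher site went from 3 to 2 each time. Among members with at least 3 control peaks 16.7% had a higher site, an alternative chosen after seeing the data. The remaining counts moved by less than 1.5 times and the remaining overlap shares stayed within their intervals, among them the members with a promoter peak at a distance of 1 kb and the sites given to the nearest start site. No paired analysis was possible because the deposited table gives no value per sample; leaving out replicates was not run for the same reason. Unknown depth limits every absence of a peak.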

Other observations

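A region 225726 bp upstream of Gucy1a2 (chromosome 8, 181107 to 182275 in the Myocd-LSD1 list) was given to that gene and was among the strongest of every list. By q-value it was in place 2 of 26480 FLAG peaks (fold enrichment 10.5) and in place 5 of the control, Myocd-LSD1 and Myocd-LSD1NF lists (folds 9.71, 8.82 and 9.66). The authors' deposited table lists no site there. The region is counted among the Gucy1a2 peaks of each list, and why it is high with both antibodies was not tested.

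Of the 23 FLAG peaks of the set 7 (30.4%) overlapped no H3K4me2 peak of any line, against 26.5% of all FLAG peaks; of the 7, 2 each lay upstream of Gucy1a2 and Pde3a and 1 each in Pde4d, Prkg1 and Adcy8. Without the Gucy1a2 region above, the 22 FLAG peaks of the set had folds of 3.49 to 9.07 and a median percentile of 43.2 by q-value in their list.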
